A study of Mus musculus with 15 samples.

Results

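miR-223 and miR-142a are microRNAs (miRNAs) of blood cells, and each is cut from a hairpin precursor that yields a mature miRNA from its 5′ arm (5p) and another from its 3′ arm (3p). The 4 mature miRNAs, listed as mmu-miR-223-3p, mmu-miR-223-5p, mmu-miR-142a-3p and mmu-miR-142a-5p, were taken by name from a table of 1205 entries, and each matched 1 entry. The prefix mmu, for mouse, is left out from here on. They were measured in small RNA libraries from platelet-free plasma of male wild-type C57BL/6J mice, 24 h after surgery. Cecal ligation and puncture (CLP), which lets gut bacteria into the abdomen and is a model of polymicrobial sepsis, was done for 9 libraries, and a sham operation for 6. The labels do not say whether each library came from its own mouse. The p-values below therefore rest only on how these libraries vary, which may be technical. Levels are given as CPM, the miRNA's count relative to the library's total of miRNA reads, scaled between libraries by the trimmed mean of M-values (TMM).

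miR-223 is a miRNA of the myeloid lineage, abundant in neutrophils and monocytes, where it restrains granulocyte production and inflammatory signalling. miR-142 is made across the blood cell lineages and is needed for the development of several of them. After a hairpin is cut by Drosha and Dicer, 1 strand of the resulting duplex is usually kept by an Argonaute protein and the other is degraded. For miR-223 the 3p strand is the one usually kept, whereas both strands of miR-142 are known to be used. Outside cells, miRNAs circulate in plasma bound to protein or inside vesicles.

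The mature sequences, from RefSeq on GRCm38.p6, are shown because the 2 arms of a hairpin gave different results. Capitals mark the seed, bases 2 to 8, which pairs with target messenger RNAs.
miR-223-3p: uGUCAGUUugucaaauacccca
miR-223-5p: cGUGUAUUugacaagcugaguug
miR-142a-3p: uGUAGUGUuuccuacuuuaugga
miR-142a-5p: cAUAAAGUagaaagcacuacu

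No seed was shared among the 4, nor with any other of the 1003 table entries for which RefSeq gave a sequence. The arms of a hairpin therefore differ in the messenger RNAs they can match by seed. Both 3p arms begin with U and both 5p arms with C. The sequences are 21 to 23 bases long, and their GC content was 40.9% for miR-223-3p, 43.5% for miR-223-5p, 34.8% for miR-142a-3p and 33.3% for miR-142a-5p.

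The hairpins show how the arms face each other, with the mature arms in capitals, 5p first.
Mir223 hairpin: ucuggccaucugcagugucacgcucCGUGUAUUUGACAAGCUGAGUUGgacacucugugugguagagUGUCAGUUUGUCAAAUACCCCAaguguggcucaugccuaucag
Mir142 hairpin: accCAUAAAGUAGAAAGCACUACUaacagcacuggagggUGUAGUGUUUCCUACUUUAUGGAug

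The Mir223 hairpin lies at chrX:96242817-96242926 on the plus strand (GRCm38), in an exon of the noncoding gene F630028O10Rik. The Mir142 hairpin lies at chr11:87756864-87756927 on the plus strand, in an intron of the noncoding gene Mir142hg, per GENCODE M21. A further miRNA gene, Mir142b, overlaps it on the minus strand. The mature miR-142b, at 20 bases, is the exact reverse complement of a stretch of miR-142a-3p, and the table held 5 reads of it over all 15 libraries.

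The libraries held between 5274676 and 13576482 miRNA reads. Of the 1205 entries 426 passed the filter on low counts, among them all 4 arms studied here. In the edgeR quasi-likelihood fit, 47.2% of those 426 passed an adjusted p under 0.05 (Benjamini-Hochberg), with 108 higher in CLP (25.4%) and 93 lower (21.8%). When libraries were scaled by their totals alone, the split was 90 higher and 126 lower and the median log2 change of all tested miRNAs shifted by -0.23. Against this background of 25.4% higher and 21.8% lower, 1 of the 4 arms, miR-223-5p, was higher in CLP and 0 of 4 were lower. The labels name no sequencing batch or date, so no value within a batch could be given. The sequencing names of the libraries number all sham before all CLP, so an effect of that order cannot be told apart from that of CLP.

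The 4 arms stood at very different levels. miR-142a-5p was the most abundant, followed by miR-223-3p, miR-223-5p and miR-142a-3p, and this order held in 15 of 15 libraries. Among the 426 tested miRNAs the median rank by level in sham was 43 for miR-142a-5p, 79.5 for miR-223-3p, 186 for miR-223-5p and 323.5 for miR-142a-3p. In CLP the median ranks were 44, 79, 109 and 318.5, so only the place of miR-223-5p moved by more than 10 ranks. Adapter ligation favours some end sequences, so the order gives read levels and not numbers of molecules.

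**Figure D1:**
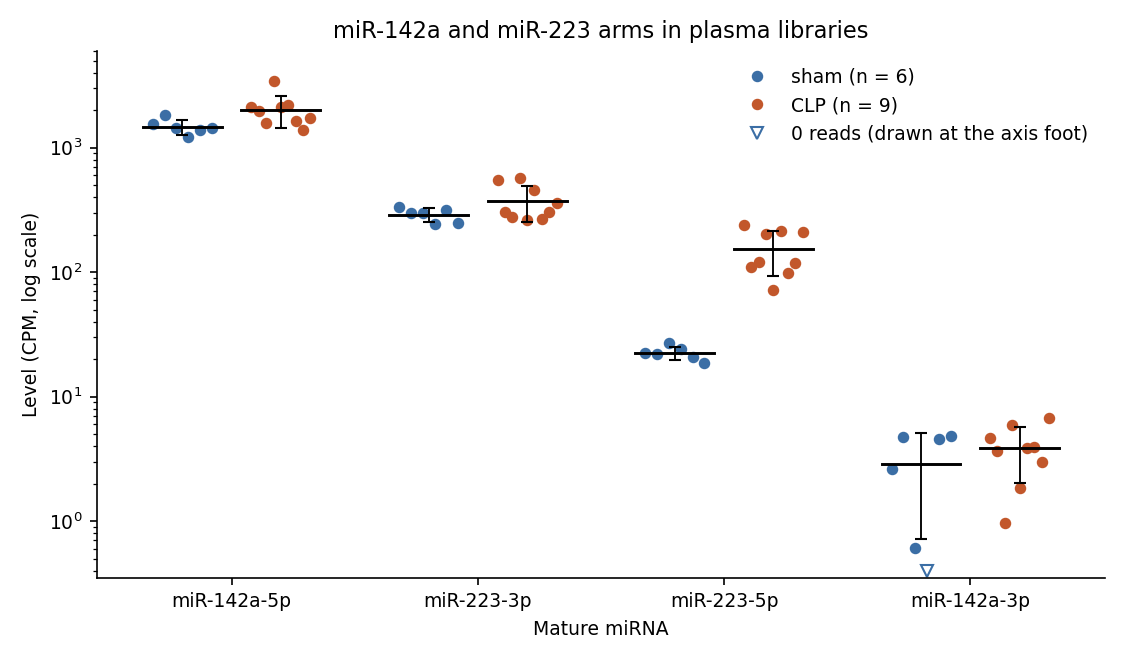
Level of each arm in CPM (log axis) in the 6 sham and 9 CLP libraries. Points are libraries, horizontal lines the mean and error bars the SD; the open triangle at the foot of the axis is sham 4, with 0 reads of miR-142a-3p. For miR-223-5p the CLP libraries, from 71.2 CPM upward, lie above every sham library, whereas the groups overlap for the other 3 arms.

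miR-223-5p, the strand of the miR-223 duplex that is usually discarded, rose in CLP. In sham its level was lowest at 18.7 CPM, with a median of 22.2 and a highest value of 26.7. In CLP it ran from 71.2 CPM through a median of 121 to 237. All 9 CLP libraries lay above all 6 sham libraries, a separation seen for 8.45% of the 426 tested miRNAs in that direction. CLP 1, CLP 4, CLP 6 and CLP 9 were highest, each above 202 CPM, and CLP 5 was lowest. The means were 22.5 ± 2.74 CPM (SD) over the 6 sham libraries and 154 ± 61.5 over the 9 CLP libraries, a log2 fold change of 2.78 ± 0.28 (SE; edgeR adjusted p = 4.03e-07), or 6.85-fold. It ranked 5 of the 249 tested miRNAs that averaged 10 CPM or more, ordered by log2 fold change. CPM is relative to the miRNA reads of a library, so the amount of a miRNA in plasma was not measured. Release from more cells, more release per cell and other causes cannot be told apart.

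miR-223-3p, the strand usually kept, showed no difference that passed the test. Its level in sham ran from 245 CPM in sham 4 to 336 in sham 1, with a median of 298. In CLP the lowest value was 265 CPM, in CLP 5, the median 307 and the highest 566, in CLP 4. CLP 1, CLP 4, CLP 6 and CLP 9 exceeded every sham library, and the other 5 lay within the sham range. The means were 290 ± 36.8 CPM (SD, n = 6) and 371 ± 120 (n = 9), and the log2 fold change was 0.36 ± 0.21 (SE; edgeR adjusted p = 0.157). Once a trend with GC content between libraries was removed, the log2 change of miR-223-3p was -0.02 (edgeR adjusted p = 0.918), while that of miR-223-5p was 2.47 (3.96e-07). The 4 CLP libraries with the most miR-223-3p were the same 4 that held the most miR-223-5p.

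The make-up of the miR-223 reads therefore differed between the groups. In sham 7.27% ± 1.12 (SD, n = 6) of the reads of both arms came from the 5p arm, and in CLP 28.8% ± 4.39 (n = 9). The highest sham share was 8.97% of 1606 reads in sham 4 (95% Wilson interval 7.67 to 10.5), and the lowest CLP share 21.2% of 3811 reads in CLP 5 (19.9 to 22.5). The highest share, 36.9% of 3607 reads, was in CLP 9 (35.3 to 38.5). These intervals cover counting error only. No CLP library came near the sham range, and miR-223-3p remained the larger arm in all 15 libraries.

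**Figure D2:**
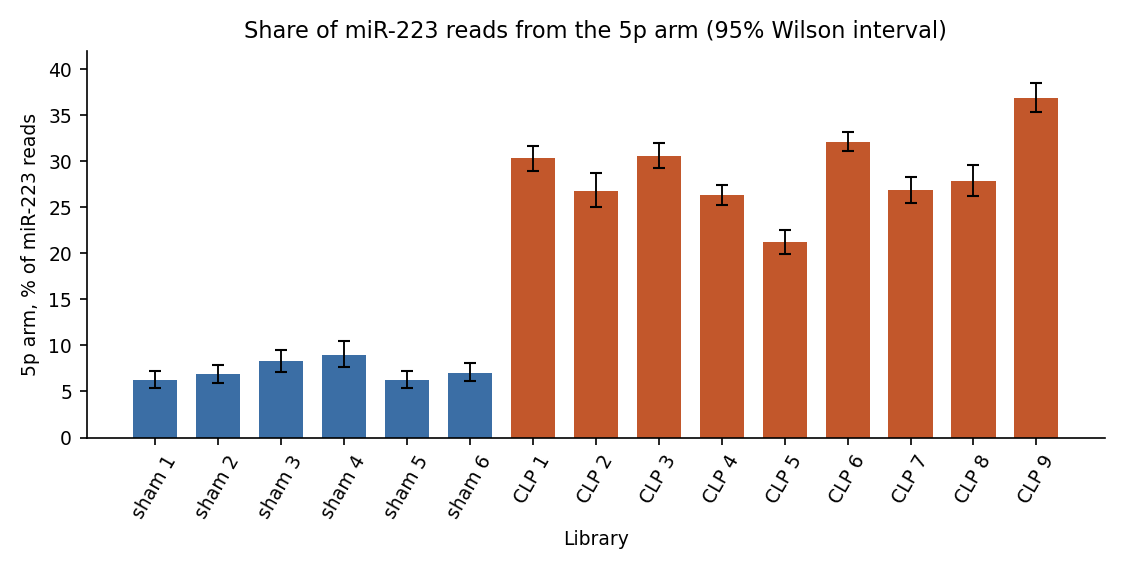
Share of miR-223 reads that came from the 5p arm (bars, percent of the reads of both arms) in each library, with 95% Wilson intervals as error bars. The 6 sham libraries lie between 6.22% and 8.97% and the 9 CLP libraries between 21.2% and 36.9%.

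The ratio of the arms within a library is free of scaling between libraries. The log2 ratio of 5p to 3p reads of miR-223 was -3.68 ± 0.23 (SD) over the 6 sham libraries and -1.32 ± 0.31 over the 9 CLP libraries. The difference was 2.36 ± 0.19 (SE) by limma over the 93 hairpins with both arms tested (adjusted p = 4.46e-08). An exact two-sided permutation test, over all 5005 ways to label 6 of the 15 libraries as sham, gave p = 0.0002, the smallest it can give. A shift of the ratio was common: 50.5% of the 93 hairpins passed the same test, 26 of them toward 5p (28.0%) and 21 away from it. In 8.6% of the hairpins every CLP ratio lay above every sham ratio, as for miR-223. Of the 93 hairpins 7 shifted further toward 5p than miR-223, and 2 had a lower p.

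**Figure D3:**
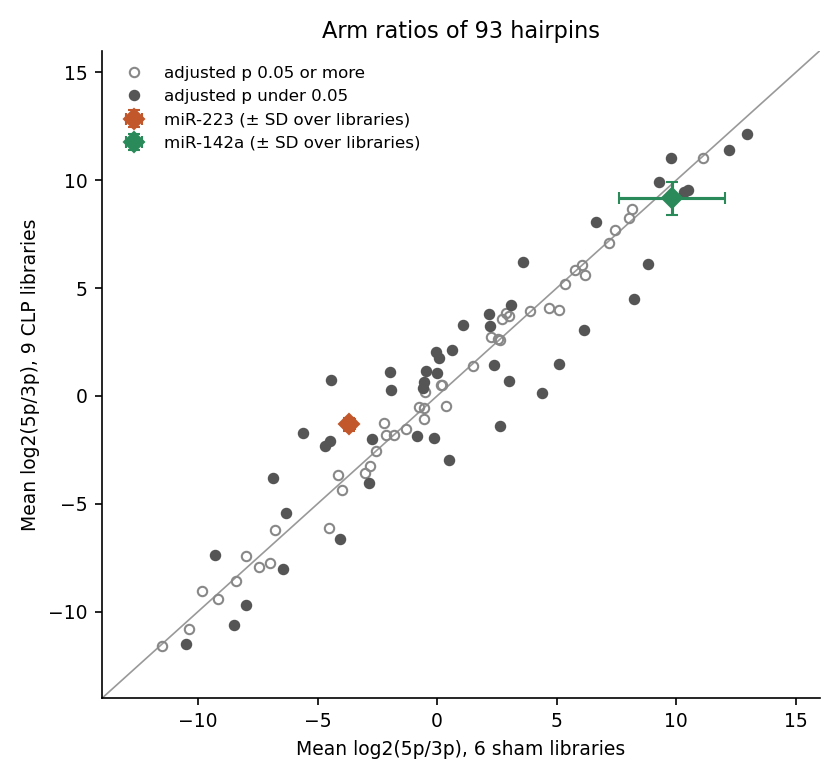
Mean log2 ratio of 5p to 3p reads for each of 93 hairpins in sham (horizontal axis) and CLP (vertical axis). Filled dark points passed the limma test, open ones did not, the line marks equal ratios, and the diamonds with SD bars are miR-223, above the line at -3.68 and -1.32, and miR-142a, at 9.84 and 9.16.

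Taking both miR-223 arms together, the hairpin's level was 312 ± 37.3 CPM (SD) over the 6 sham libraries and 525 ± 176 over the 9 CLP libraries. Of this difference of 213 CPM, 61.7% was in the 5p arm, although that arm gave the fewer reads in every library. The rest lies in the 3p arm, whose change did not pass, so the split depends on the scaling. With libraries scaled by their totals alone, the log2 change was 0.14 for miR-223-3p (edgeR adjusted p = 0.638) and 2.55 for miR-223-5p (1.53e-06). CLP 7, for example, held 268 CPM of miR-223-3p, within the sham range, and 98.4 CPM of miR-223-5p, above it. Across the 9 CLP libraries the log2 levels of both arms went together (Pearson r = 0.88, exact permutation p = 0.00190, adjusted over 6 pairs 0.0114; Spearman rho = 0.85, 0.00607, adjusted 0.0364). Without CLP 1 and CLP 4, the libraries farthest from the median of miR-223-3p, r was 0.89. In the 6 sham libraries r was 0.18 (exact permutation p = 0.733, adjusted 0.764) and rho -0.14 (0.803, adjusted 0.803), over a range of 1.37-fold for miR-223-3p. The difference between the groups in r was not tested, and both measures share the scaling of their library.

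**Figure D4:**
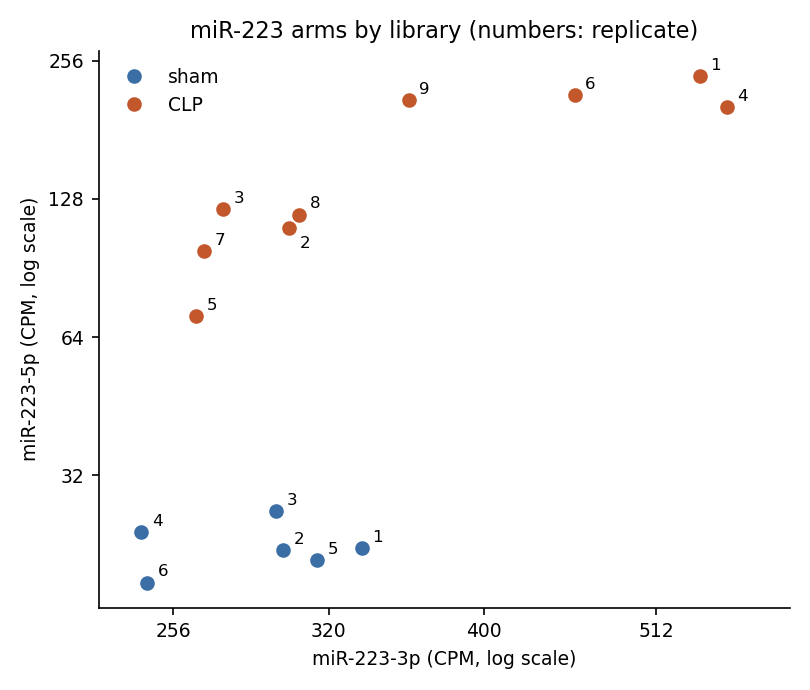
Level of miR-223-5p (vertical axis, CPM) against miR-223-3p (horizontal axis, CPM) in each library, both on log axes; numbers are the replicate. The sham points lie at 18.7 to 26.7 CPM of miR-223-5p whatever their miR-223-3p, and the CLP points rise from CLP 5 at 71.2 to CLP 1 at 237.

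miR-142a-5p, the most abundant of the 4, was on average higher in CLP but did not pass the test. In sham it ran from 1211 CPM in sham 4 through a median of 1433 to 1816 in sham 2. In CLP the lowest value was 1396 CPM in CLP 8, the median 1955 and the highest 3407 in CLP 4. CLP 1, CLP 2, CLP 4, CLP 5 and CLP 6 exceeded every sham library, and the other 4 lay within the sham range. The means were 1473 ± 201 CPM (SD, n = 6) and 2018 ± 589 (n = 9), and the log2 fold change was 0.45 ± 0.19 (SE; edgeR adjusted p = 0.0627). Without CLP 4 the change was 0.28 (edgeR adjusted p = 0.188), and with the GC trend removed it was -0.17 (0.440). In 7 of the 15 libraries the count of miR-142a-5p held a fraction, which arises where a read matching several entries is divided among them. It is therefore uncertain by an unknown amount.

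miR-142a-3p was scarce in all 15 libraries, with 418 reads in total against 222576.5 of miR-142a-5p. In sham its count was 19, 37, 4, 0, 34 and 50 in libraries 1 to 6. The 0 in sham 4 allows up to 0.502 CPM at a limit of 3 reads, and the 4 reads of sham 3 gave 0.611 CPM (exact 95% Poisson interval 0.167 to 1.56, counting error only). In CLP the level ran from 0.960 CPM in CLP 3 (11 reads, 0.479 to 1.72) through a median of 3.87 to 6.78 in CLP 9 (43 reads, 4.90 to 9.13). Only CLP 4 and CLP 9 exceeded every sham library. The means were 2.89 ± 2.17 CPM (SD, n = 6) and 3.84 ± 1.82 (n = 9), and the log2 fold change, 0.38 ± 0.57 (SE; edgeR adjusted p = 0.611), was smaller than its error. It was 0.07 without sham 4 (edgeR adjusted p = 0.923) and -0.22 with the GC trend removed (0.734). The sham libraries differed by more than counting error, since the interval of sham 2 (37 reads, 3.34 to 6.54 CPM) lay above that of sham 3.

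The reads of the miR-142a arms were thus far more unequal than those of the miR-223 arms, and in the other direction. This is an inequality of counts. The aligner and miRNA annotation are not given, and whether counting or adapter ligation made miR-142a-3p scarce was not tested. The 5p arm of miR-142a gave 99.8% ± 0.143 (SD, n = 6) of the reads in sham and 99.8% ± 0.0934 (n = 9) in CLP. Among the 14 libraries with 3p reads the ratio of 5p to 3p ran from 257 in CLP 9 to 2341 in sham 3. In the log2 ratio, 8 of the 93 hairpins were more unequal than miR-142a in sham, where its mean is raised by sham 4, and 13 in CLP. The log2 ratio of 5p to 3p, with a pseudocount of 0.5 reads, was 9.84 ± 2.22 (SD) over the 6 sham libraries and 9.16 ± 0.78 over the 9 CLP libraries, and the difference of -0.68 ± 0.73 (SE) did not pass (limma adjusted p = 0.473; exact permutation p = 0.462). Without sham 4, whose ratio of 13.8 rests on the pseudocount, the difference was 0.12 ± 0.49 (limma adjusted p = 0.856).

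The hairpins were then compared directly within each library, with p-values adjusted over these 3 ratios. The shift of the arm ratio was larger for miR-223 than for miR-142a by 3.04 on the log2 scale (exact two-sided permutation p = 0.000400, adjusted 0.000599), and by 2.31 without sham 4 (adjusted 0.00150). In 8 of 9 CLP libraries this difference of ratios lay above every sham library. The log2 ratio of miR-223-5p to miR-142a-5p went from -6.03 ± 0.28 (SD, n = 6) to -3.78 ± 0.58 (n = 9), a rise of 2.25 in which all 9 CLP libraries lay above all 6 sham libraries (exact permutation p = 0.0002, adjusted 0.000599). The log2 ratio of miR-223-3p to miR-142a-3p, at 7.49 ± 2.27 (n = 6) and 6.70 ± 0.68 (n = 9), did not pass (difference -0.79, exact permutation p = 0.381, adjusted 0.381), and the difference was 0.01 without sham 4. This ratio and the difference of the arm ratios both rest on the few reads of miR-142a-3p.

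The other pairs of arms were less closely related in CLP. The highest r after that of the miR-223 arms was 0.72, between miR-223-3p and miR-142a-5p (n = 9, exact permutation p = 0.0204, adjusted 0.0612; rho = 0.58, 0.108, adjusted 0.216). It fell to 0.39 without CLP 1 and CLP 4 and so rests on those libraries. The remaining 4 pairs had r between 0.40 and 0.63 in CLP, with exact permutation p adjusted over the 6 pairs of 0.104 or more. In sham no pair passed, and the lowest adjusted p for r was 0.463. For rho the lowest adjusted exact permutation p was 0.2, between miR-223-5p and miR-142a-3p (rho = -0.89, r = -0.72, n = 6). In CLP the r of that pair was 0.63.

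Some miRNAs followed an arm more closely over the 9 CLP libraries. Of 246 others averaging 10 CPM or more, the ones whose log2 level was most like that of miR-223-5p were miR-221-3p (Pearson r = 0.97, n = 9), miR-1839-5p (0.94) and miR-340-5p (0.93). For miR-223-3p they were miR-146b-5p (r = 0.95), miR-362-3p (0.90) and miR-339-5p (0.87). For miR-142a-5p they were miR-425-3p (r = 0.94), miR-15b-3p (0.89) and miR-219a-1-3p (0.80), and for miR-142a-3p miR-99b-3p (0.89), miR-532-5p (0.86) and miR-7a-5p (0.86). These are the highest of many values over few libraries that share a scaling, and are a description. In sham the r of miR-221-3p with miR-223-5p was -0.48 (n = 6), the lowest among these pairs, and that of miR-340-5p with miR-223-5p was 0.83, the highest. No miRNA was among the 3 most alike for both arms of miR-223.

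Other miRNAs listed for myeloid cells are set beside miR-223 here. This list and those below were chosen with earlier results of these data known, so their counts are a description. Of the 8 other tested members of the myeloid list, 4 were higher in CLP and none lower, where 25.4% of all tested miRNAs were higher and 21.8% lower. Their median log2 change was 0.59, against 0.11 over all tested miRNAs. Leaving out 1 library at a time gave the same counts, and the other settings gave 2 to 4 higher and 0 to 1 lower. The 4 called were miR-24-3p, miR-21a-5p, miR-155-5p and miR-147-3p. Of these, miR-155-5p (mean 2.22 CPM in sham, 9.13 in CLP) and miR-147-3p (0.916 and 5.71) were scarce. Only miR-147-3p of the 4 is on no other list. The 3 most abundant of the 8 were miR-146a-5p, which is induced by and damps Toll-like receptor signalling, miR-24-3p and miR-23a-3p. miR-24-3p rose from 11005 ± 2347 CPM (SD, n = 6) to 19713 ± 3415 (n = 9), a log2 change of 0.84 ± 0.18 (SE; edgeR adjusted p = 0.00111). The log2 changes of miR-146a-5p (-0.15 ± 0.28, edgeR adjusted p = 0.692) and of miR-23a-3p (-0.33 ± 0.30, 0.382) did not pass. That of miR-23a-3p was -0.08 without sham 3, and -0.83 (edgeR adjusted p = 0.0273) with a haemolysis index as covariate, an index that itself contains miR-23a-3p.

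Lists for other sources of plasma miRNA were counted in the same way, again beside 25.4% higher and 21.8% lower over all tested miRNAs, and no test between lists was made. Of 14 lymphocyte miRNAs 4 were higher and 4 lower (median log2 change 0.08), and of 10 platelet miRNAs other than miR-223-3p 5 were higher and 3 lower (0.21). Leaving out 1 library at a time gave 2 to 3 higher and 3 to 4 lower on the lymphocyte list. On the platelet list it gave 5 higher and 2 to 5 lower. Of 11 red cell miRNAs 3 were higher and 2 lower (0.09), and of 5 hepatocyte miRNAs 1 was higher and none lower (0.84). The hepatocyte call was lost in 11 of 15 fits that left out 1 library and under 8 of 10 other settings. The 3 most abundant on each were miR-29a-3p, miR-146a-5p and miR-26a-5p (lymphocyte), miR-191-5p, miR-24-3p and miR-25-3p (platelet), miR-486a-5p with miR-486b-5p, miR-25-3p and miR-144-3p (red cell), and miR-192-5p, miR-122-5p and miR-194-5p (hepatocyte). Many list members are also made in other cells, and the lists overlap. miR-223-3p, miR-24-3p and miR-21a-5p are on both the myeloid and the platelet list, and miR-155-5p and miR-146a-5p on both the myeloid and the lymphocyte list.

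Red cell miRNAs, which haemolysis adds to plasma, varied widely between libraries. The summed level of the 12 red cell miRNAs found in the table, of 13 listed, ran from 164994 to 471583 CPM in sham and from 97253 to 399099 in CLP. miR-451a was lower in CLP, with a log2 change of -1.28 ± 0.32 (SE; edgeR adjusted p = 0.00313). A common index of haemolysis is the log2 ratio of miR-451a to miR-23a-3p. Its mean over the 6 sham libraries was -0.44 (SD 0.67) and over the 9 CLP libraries -1.41 (SD 0.99), with an exact permutation p of 0.0585. It was highest in CLP 5, at 0.72, the library with the lowest miR-223-5p level and the lowest 5p share of miR-223 in CLP. With the index as a covariate, the log2 change of miR-223-5p was 2.62 ± 0.30 (SE; edgeR adjusted p = 4.27e-06) and the shift of its arm ratio 2.21 ± 0.21 (limma adjusted p = 8.99e-07). Without CLP 5 they were 2.80 and 2.44. The summed level of the 11 platelet miRNAs found in the table, of 12 listed, was lower in every CLP library (44493 to 56081 CPM) than in any sham library (56827 to 74842). miR-191-5p alone carried this: it ran from 31475 to 41940 CPM in sham and from 1648 to 9953 in CLP. The sum of the other 10 went the other way, from 25352 to 32902 CPM in sham to 37271 to 54433 in CLP, higher in every CLP library. That sum is weighted to its most abundant members, miR-24-3p (mean 11005 CPM in sham, 19713 in CLP) and miR-25-3p (5934 and 13333), which are on other lists too. Single members were split: without miR-223-3p, 5 were higher and 3 lower. The 3 were miR-191-5p, miR-199a-3p with miR-199b-3p, and miR-151-3p (4172 and 2013 CPM). The haemolysis index was the only such measure entered in a fit, and no platelet measure was. The part of red cells or platelets as a cause of the results was not tested.

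**Figure D5:**
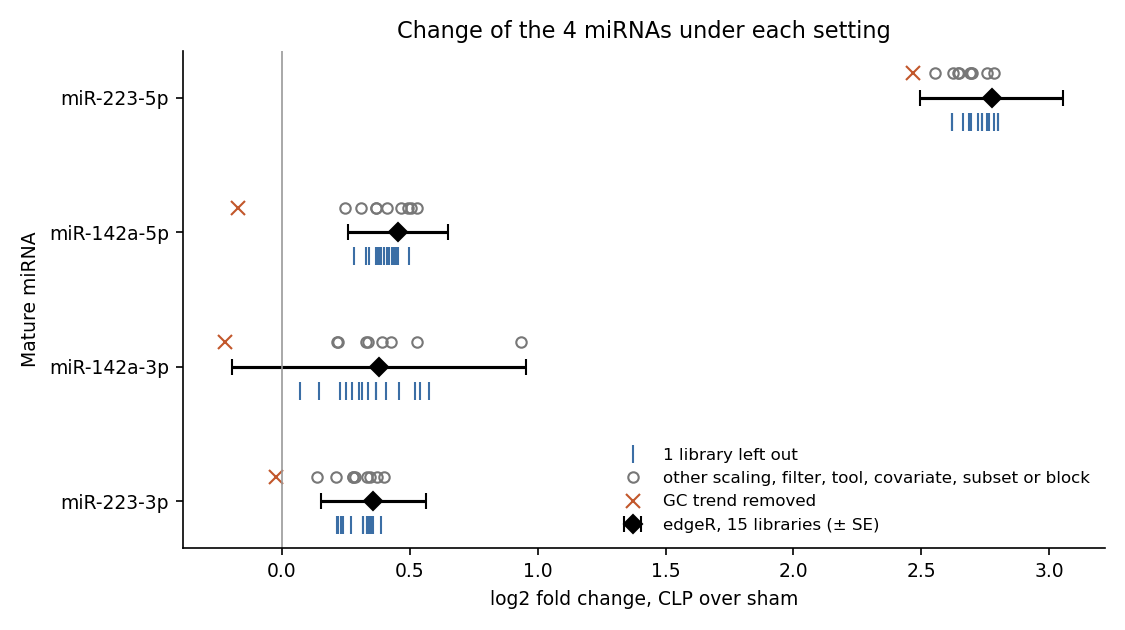
Log2 fold change (CLP over sham) of each arm in the edgeR fit with its SE (diamonds), on leaving out 1 library at a time (ticks), and under the other settings (circles; cross, GC trend removed). miR-223-5p stays between 2.47 and 2.80, whereas the other 3 arms lie below 1 and are under 0 once the GC trend is removed.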

How the data were processed

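Plasma small RNA libraries were made by adapter ligation, reverse transcription, indexing PCR and gel excision, per the labels' protocols. The deposited table, named for the exceRpt pipeline, holds expected counts per miRNA for 15 libraries, not scaled for depth by the authors. The submitters' processing notes name mm10 as the build. The aligner, trimming and miRNA annotation: not given in the sources used here. Of all entries 4.56% were not whole, and counts were rounded before testing.

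All 15 libraries (9 CLP, 6 sham) entered 1 fit in edgeR 4.0.16 (R 4.3.3): filterByExpr, TMM scaling, robust quasi-likelihood F test, two-sided, Benjamini-Hochberg adjustment over 426 miRNAs, threshold 0.05. Standard errors were obtained as |log2 change|/√F. Arm ratios (pseudocount 0.5) of 93 hairpins were fitted with limma 3.58.1. Other ratios were tested by exact permutation over libraries. Log2 CPM for correlations used a prior count of 2. The GC trend was removed by a loess fit per library over the 373 tested miRNAs (87.6%) with a RefSeq sequence. Fits were tested on simulated data. Between any pair of libraries of a group, counts differed with a chi-square per degree of freedom of at least 235 (sham) or 373 (CLP), far beyond sampling noise.

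The 4 miRNAs and the myeloid, lymphocyte, platelet, red cell and hepatocyte lists were chosen with earlier results of these data known. Named besides the 4 were, for each, the 3 miRNAs most alike over the CLP libraries, and the 3 most abundant others of each list. Alternatives were DESeq2 1.42.0, limma voom, other scalings and filters, covariates, a block and leaving out each library.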

Additional observations from a re-analysis of the deposited data

Results flagged for a closer look

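The level of miR-142a-5p in CLP 4 stood apart from the other CLP libraries. It was 11.73 as log2 CPM, where the other 8 lay between 10.45 and 11.09, and its gap to the nearest library was 0.498 of the range of the group, above the critical value of 0.493 for 9 libraries (Dixon's 95% test). CLP 4 also held the highest miR-223-3p of any library, and its miR-142a-3p was second to CLP 9. The check was made on 18 sets of values (4 arms and 5 ratios in each group), and chance alone sets a library apart in about 5% of such sets.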

How the results depend on the processing

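The rise of miR-223-5p passed under every alternative run, with log2 changes from 2.47 to 2.78 under 10 other settings and from 2.62 to 2.80 on leaving out each library. The shift of the miR-223 arm ratio passed under the 6 other settings run for it (2.21 to 2.36) and on leaving out each library (2.30 to 2.44). Its excess over that of miR-142a passed with a pseudocount of 5 (2.40), the only other setting run for it, and on leaving out each library (2.31 to 3.36). Under the same runs the ratio of miR-223-5p to miR-142a-5p also passed (2.22, and 2.16 to 2.39). No ratio was fitted with the GC trend removed. With the GC trend removed the direction turned for miR-223-3p (-0.025), miR-142a-3p (-0.22) and miR-142a-5p (-0.17); the cause was not tested. miR-142a-5p passed with libraries 1 to 6 of each group (0.53, edgeR adjusted p = 0.0493), a subset chosen after seeing the data, and on leaving out 1 library its change was 0.28 to 0.50, with adjusted p from 0.0514 to 0.228. For miR-223-3p that range was 0.21 to 0.39 and for miR-142a-3p 0.07 to 0.57. Under the other settings miR-223-3p ran from -0.025 to 0.40 and miR-142a-3p from -0.22 to 0.94. The 0.94 came from limma voom (adjusted p = 0.259), and neither arm passed under any setting. On leaving out 1 library the miR-142a arm ratio ranged from -1.01 to 0.12 and the ratio of miR-223-3p to miR-142a-3p from -1.16 to 0.012, above 0 only without sham 4. With no filter 307 miRNAs were called, against 201 (184 to 213 on leaving out 1 library). The stricter filter removed miR-142a-3p and so its arm ratio. The labels state no pairing of the replicate numbers, and a check showed no sign of one. Same-numbered libraries deviated from their group means with correlations from -0.15 to -0.03, and in 0 of 6 cases was the same number the best match. A pairing that leaves no such correlation would not be seen. A replicate block (libraries 1 to 6 of each group) gave log2 changes of 2.65 for miR-223-5p (edgeR adjusted p = 0.000191), 0.34 for miR-223-3p, 0.39 for miR-142a-3p and 0.50 for miR-142a-5p (0.132), the arm ratio shifts 2.30 and -0.36, and 152 miRNAs were called. Of the 4 arms miR-142a-3p had the fewest reads, at most 50 in a library, and its sham libraries differed beyond counting error.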

Other observations

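Beside the mature arms, the table held an entry for the Mir142 precursor itself. It had 71 reads over the 15 libraries, and its mean level over the 6 sham libraries was 0.390 CPM (SD 0.408) and over the 9 CLP libraries 0.678 (SD 0.516), a difference that did not pass an exact permutation test (p = 0.287). Its count held a fraction in 4 libraries, and whether its reads also match an arm was not tested. The entry was left out of the arm ratios. The antisense miR-142b had 2 reads in sham and 3 in CLP, with 0 in 10 of 15 libraries.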
